A study of Drosophila melanogaster with 28 samples.

Results

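The cytosolic ribosomal protein genes of Drosophila melanogaster are described here in 4 groups of RNA sequencing libraries, with 2 libraries in each. Members were taken by name. Every gene whose symbol begins with RpL or RpS was included, together with sop, the older symbol of RpS2. The rule gave 90 of the 13892 genes in the files, 53 with large subunit names and 37 with small subunit names. The groups were embryos collected at 0 to 2 h, whole dissected ovaries, OSS cells and the carcass of females after removal of the ovaries. OSS, short for ovarian somatic sheet, is a cell line that was grown from the somatic part of the ovary and holds no germline, kept at 25 °C in M3 medium with fetal bovine serum, fly extract, insulin and glutathione. Flies were raised at 25 °C and given yeast paste. The labels give no strain, genotype or age of the adults, and no treatment that sets the groups apart. Another 20 libraries of the study carry transposon values from germline knockdowns and were not used here. Total RNA was taken with TRIzol, 5 ug per library were depleted of ribosomal RNA with a kit made for human, mouse and rat, and libraries were made with ScriptSeq V2.

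A ribosome joins a small subunit, which reads the mRNA, to a large subunit, which forms the peptide bonds, and each subunit is built from ribosomal RNA and a set of small basic proteins. Most of the proteins, though not all, are needed in equal numbers. In flies a single working copy of many of these genes gives the Minute phenotype of slow growth, short bristles and low fertility. In the ovary, nurse cells make ribosomes and mRNA for the oocyte, and the early embryo lives on that maternal supply before its own genes are switched on. Several ribosomal protein genes of flies have a second copy, and some second copies are known for expression in the germline.

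Levels are given as FPKM, fragments per transcript length and mapped total, which puts genes on a scale per length. Whether this makes levels of very short genes comparable with those of longer ones was not tested. The summed FPKM of a library ranged from 458041 to 628408. The read totals are unknown, so that no counting error can be given. Genes with 1 FPKM or more in a library numbered 6810 to 10986, with the lowest number in embryo replicate 1. Germline markers (vas, nos, osk, orb, AGO3 and bcd) summed to 655 and 649 FPKM in the embryo libraries, 1174 and 1217 in the ovary libraries, 13.0 and 13.8 in the OSS libraries and 65.8 and 74.8 in the carcass libraries. The list of ovarian somatic cell markers held tj, zfh1, Fas3, fs(1)Yb and ptc. Together they summed to 79.5 and 84.7 FPKM in ovary, 221 and 219 in OSS and 74.2 and 70.6 in carcass. Of these, tj had 26.6 and 23.7 FPKM in ovary, 84.2 and 87.9 in OSS and 3.12 and 3.93 in carcass. Between ovary and carcass, tj, zfh1 and fs(1)Yb were higher in ovary, while Fas3 and ptc were higher in carcass. Fas3 had 34.6 and 41.2 FPKM in ovary and 64.1 and 58.8 in carcass. Muscle markers reached 3899.8 and 3548 FPKM in the carcass libraries, where eggshell genes, which mark late follicle cells, still summed to 443 and 191 FPKM against 5039.8 and 5159 in the ovary libraries. The 3 testis markers together stayed at or below 5.11 FPKM in all 8 libraries. The labels do not say whether the 2 libraries of a group came from separate animals or cultures, so p-values measure the spread between these libraries, which may be technical. In such bulk samples, fewer cells of a type and less RNA per cell cannot be told apart.

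Ribosomal protein mRNA was abundant in all 4 groups. The 90 genes held 8.12% ± 0.317 of the summed FPKM in embryo, 11.1% ± 0.369 in ovary, 13.0% ± 0.0716 in OSS and 8.26% ± 0.0561 in carcass (SD, n = 2 each). The median level over the 83 members that had 10 FPKM or more in every library was 256 and 255 FPKM in the embryo libraries, 662 and 687 in the ovary libraries, 945 and 931 in the OSS libraries and 494 and 555 in the carcass libraries. The libraries of each group lay close together, and the 4 groups did not overlap in this median. RpL41, a very short basic protein of the large subunit, was the highest member in every library. It had 5619.9 and 5854 FPKM in the embryo libraries, 5463 and 6221 FPKM in the ovary libraries, 6798 and 6668 FPKM in the OSS libraries and 3883 and 4109 FPKM in the carcass libraries. The next highest members by the mean of the group means were RpL39, at 1589.7 ± 50.2, 1902 ± 40.9, 2222 ± 63.7 and 1450.2 ± 112 FPKM in embryo, ovary, OSS and carcass (SD, n = 2 each), and RpS29, at 1807 ± 62.7, 1669 ± 32.3, 1583 ± 27.3 and 1390.4 ± 115 FPKM in the same groups. These are also among the shortest members, with coding lengths of 75, 153 and 168 bases for RpL41, RpL39 and RpS29. Over the 83 members, longer coding length went with a lower FPKM as a description, with a Spearman correlation of -0.34 in embryo, -0.48 in ovary, -0.49 in OSS and -0.51 in carcass, where all points of a group share the same libraries.

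At the other end, 4 members did not pass the filter on low values, 1 FPKM or more in at least 2 libraries, and were not tested. RpS28a and RpS28-like were listed at 0 in every library with a value. RpL10Aa reached at most 0.896 FPKM, in OSS replicate 1, and RpL37b at most 1.69 FPKM, in OSS replicate 2. The files list no value for RpS28a, RpL37b and RpS19b in carcass replicate 1. The other copies of these genes were high. RpS28b had 951 and 1018 FPKM in the embryo libraries, 1271 and 1299 FPKM in the ovary libraries, 1576 and 1529 FPKM in the OSS libraries and 1111 and 1179 FPKM in the carcass libraries. RpL10Ab had 246 and 259 FPKM in embryo, 570.4 and 629 in ovary, 728 and 714 in OSS and 419 and 495 in carcass. RpL37a, listed as RpL37-1 in the current annotation, had 519 and 446 FPKM in embryo, 612 and 626 in ovary, 920.3 and 909 in OSS and 427 and 508 in carcass. RpS10a, RpS19b and RpL22-like passed the filter but stayed under 40 FPKM in every library, and they are described with their partner genes.

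**Figure D1:**
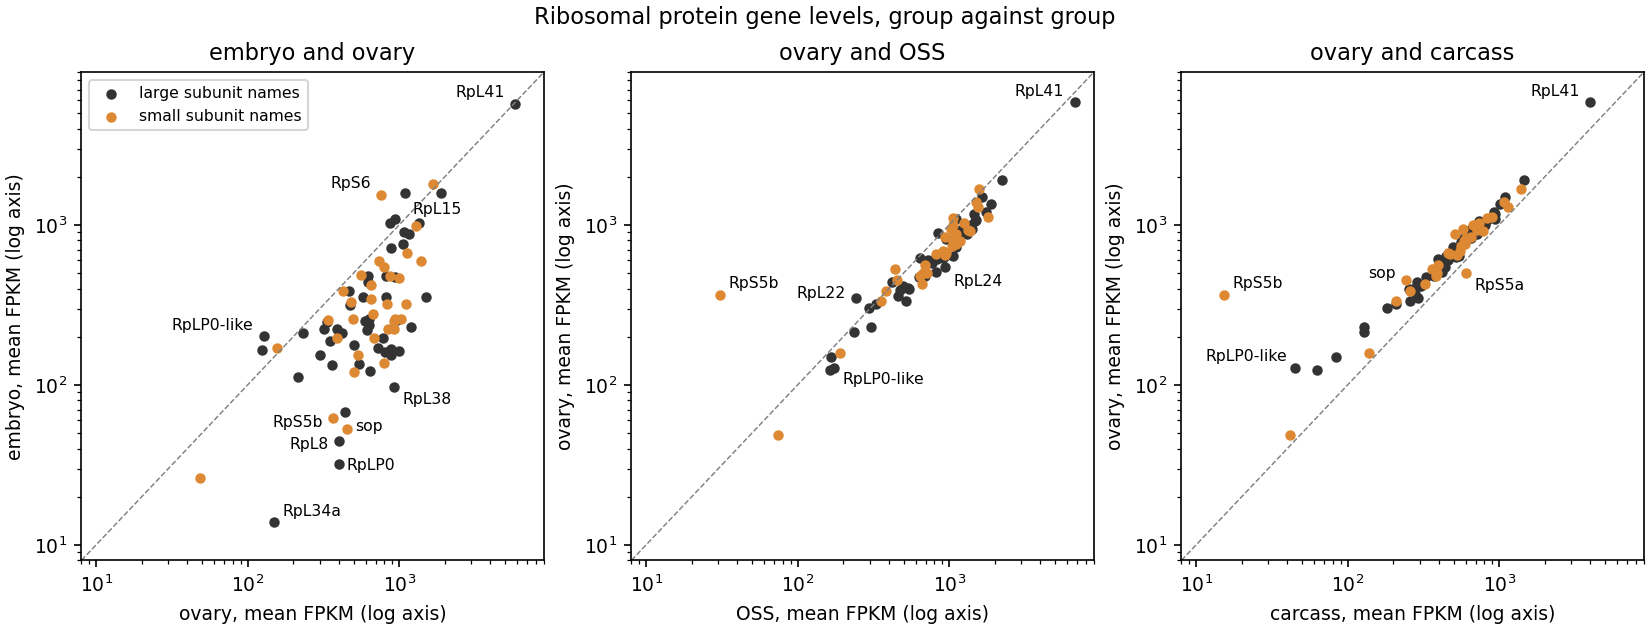
Mean FPKM of the 83 ribosomal protein genes with 10 FPKM or more in all 8 libraries, for embryo against ovary, ovary against OSS and ovary against carcass, on log axes with the group named first on the vertical axis and the dashed line at equal levels. Black points carry large subunit names and orange points small subunit names, and in the panels of ovary against OSS and carcass most points follow a narrow band with RpS5b far above it, while the embryo points are spread over a wide range.

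The relative levels of the members were close to fixed among ovary, OSS and carcass and different in the embryo, as the plot of group against group shows. Ranked by FPKM, the 83 members had Spearman correlations of 0.986 to 0.995 between the 2 libraries of a group. Between libraries of ovary, OSS and carcass the correlations were 0.941 to 0.976, and between an embryo library and a library of any other group they were 0.566 to 0.642. The embryo stood apart in other genes too. Over the 2604 genes with 10 FPKM or more in every library the correlations were 0.148 to 0.441 with an embryo library and 0.477 to 0.748 among ovary, OSS and carcass. Over the 25 translation factors at that level they were 0.446 to 0.729 and 0.724 to 0.961, and over 20 mitochondrial ribosomal protein genes 0.230 to 0.498 and 0.713 to 0.811. These describe the libraries, and all points of a correlation share the same library pair. The SD of the members' differences in log2 FPKM was 1.02 for embryo minus ovary, 0.490 for ovary minus OSS, 0.509 for ovary minus carcass and 0.286 for OSS minus carcass. RpS5b carried much of the spread of both ovary differences, and without it, a choice made after its values were seen, the SDs were 1.01, 0.238, 0.216 and 0.286 in the same order. Over all genes at that level, the SDs of the same 4 differences were 1.37, 0.806, 1.03 and 1.19. The log2 differences of single genes and their medians given from here on are differences of log2(FPKM + 1).

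In the 0 to 2 h embryo, most ribosomal protein mRNAs were lower than in the ovary in deposited FPKM, and by very unequal amounts. Of the 86 members tested, 70 were called lower and 6 higher in embryo than in ovary, with 10 not called (limma, adjusted p under 0.05), against 44.8% of all genes called lower and 15.1% called higher. The median log2 difference was -0.96 over the members and -0.58 over all genes tested. The count turned with the scaling, since after median-ratio scaling 38 members were higher and 29 lower, against 28.7% and 32.2% of all genes, with a median of 0.29 over the members and -0.01 over all genes. After quantile normalization 7 members were higher and 63 lower, against 29.2% and 27.5% of all genes.

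The members that fell most were RpLP0, RpL34a, RpL38, RpL8 and sop. RpLP0, the base of the ribosomal stalk on the large subunit, had 26.1 and 38.1 FPKM in the embryo libraries, 384 and 413 in the ovary libraries, 544 and 538 in the OSS libraries and 239 and 269.5 in the carcass libraries. Its embryo values lay far below those of every other group, and RpLP0 fell against ovary (log2 difference -3.62, SE 0.16, adjusted p = 2.60e-06). RpL38, a small protein of the large subunit, had 89.2 and 105 FPKM in the embryo libraries against 873 and 975 in the ovary libraries (log2 difference -3.24, SE 0.10, adjusted p = 6.60e-07). It stood at rank 76 of 90 by FPKM in embryo and at rank 23 in ovary. RpL8, a large subunit protein near the catalytic centre, had 41.0 and 48.3 FPKM in the embryo libraries against 395 and 413 in the ovary libraries (log2 difference -3.15, SE 0.13, adjusted p = 2.04e-06). The gene sop, which encodes the small subunit protein RpS2 and takes its name string of pearls from an ovary phenotype of its mutants, had 55.8 and 50.6 FPKM in the embryo libraries against 433 and 469 in the ovary libraries (log2 difference -3.06, SE 0.12, adjusted p = 1.34e-06). These 5 were given as the largest falls, so the wide gap between their embryo and ovary libraries follows from that choice. Under median-ratio scaling of the same libraries the 5 genes stayed lower in embryo. There RpLP0 was at -2.38, RpL34a at -2.13, RpL38 at -1.99, RpL8 at -1.91 and sop at -1.82.

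A few members went the other way. RpS6, the small subunit protein that is phosphorylated by S6 kinase, had 1479.9 and 1608 FPKM in the embryo libraries, 736 and 792 in the ovary libraries, 1124 and 1089.7 in the OSS libraries and 557 and 641 in the carcass libraries. The embryo values were the highest of the 4 groups, and RpS6 rose over ovary (log2 difference 1.01, SE 0.08, adjusted p = 3.74e-05), with 2.27 after median-ratio scaling. Among the 90 members it ranked 5 in embryo and 38 in ovary. RpL15, a core protein of the large subunit, had 1587 and 1591 FPKM in the embryo libraries against 1101 and 1071 in the ovary libraries (log2 difference 0.55, SE 0.05, adjusted p = 4.14e-05), with 1.80 after median-ratio scaling. RpL5, which binds the small 5S ribosomal RNA, completes the 6 members called higher, with 1059 and 1129.8 FPKM against 925 and 942 FPKM (log2 difference 0.23, SE 0.07, adjusted p = 0.0252), and was named after its values were seen. Its call was lost without embryo replicate 2, ovary replicate 1, ovary replicate 2, OSS replicate 1 or OSS replicate 2, at adjusted p of 0.053 to 0.118. With no filter on low values the RpL5 call was lost as well (adjusted p = 0.0641). The other 3 members called higher were RpL22-like, RpLP0-like and RpL7-like, described below with their partner genes. RpS29, among the highest members in both groups, was not called in deposited values (log2 difference 0.11, SE 0.07, adjusted p = 0.199), but stood at 1.37 after median-ratio scaling and at 0.29 after quantile normalization. RpL41 was not called either (log2 difference -0.02, SE 0.07, adjusted p = 0.815), and it stood at 1.23 and at -0.88 after the same steps.

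**Figure D2:**
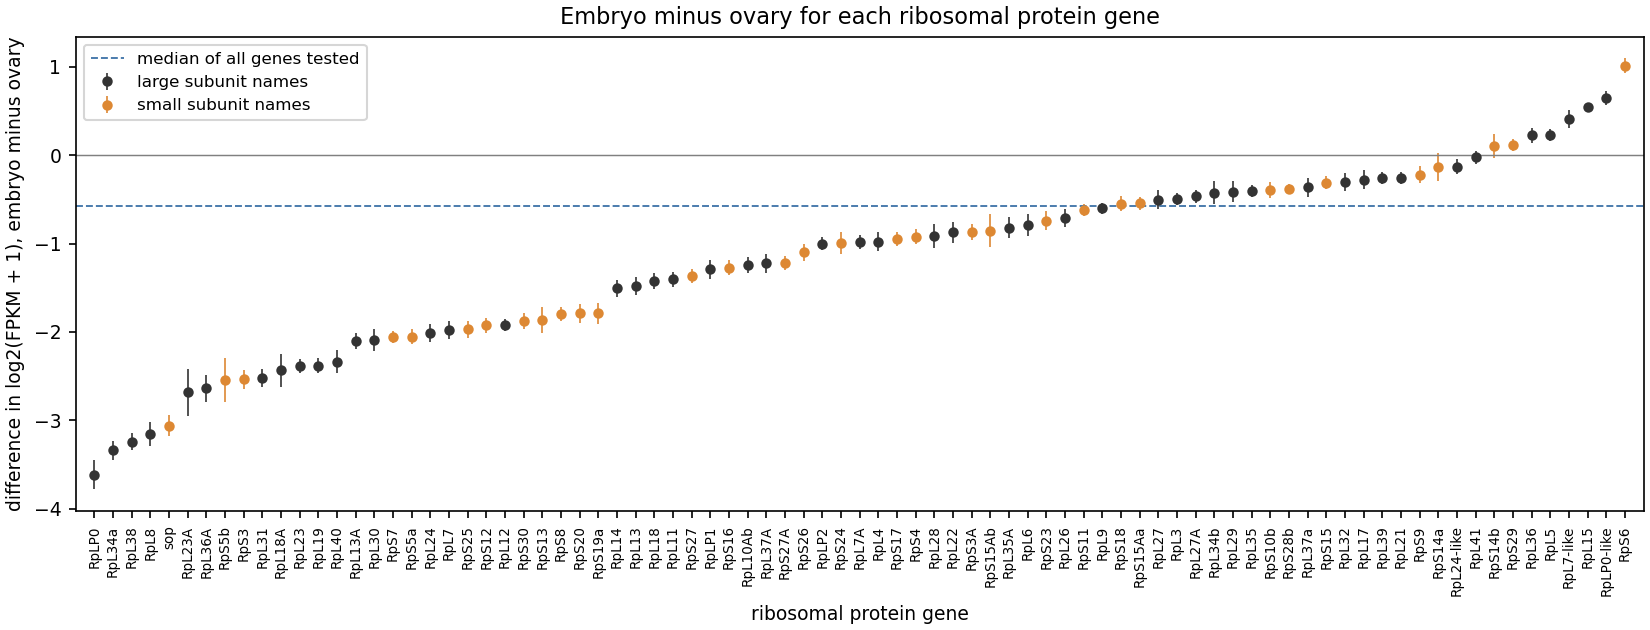
Difference in log2(FPKM + 1) of embryo minus ovary for each of the 83 ribosomal protein genes with 10 FPKM or more in all 8 libraries, ordered by size, with bars of 1 SE from limma, black for large and orange for small subunit names. The genes run from RpLP0 at -3.62 to RpS6 at 1.01, and the dashed line marks the median of all genes tested at -0.58.

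Both subunits held members at either end. Of the members at 10 FPKM or more everywhere, the 33 of the small subunit had a median embryo minus ovary difference of -0.99, with 28 lower and 1 higher, and the 50 of the large subunit had a median of -0.98, with 42 lower and 4 higher, in deposited values where 44.8% of all genes were lower and 15.1% higher. Median-ratio scaling turned both, to 12 lower and 13 higher with a median of 0.26 for the small subunit and 17 lower and 24 higher with a median of 0.27 for the large, against 32.2% and 28.7% of all genes. Proteins that sit together on the ribosome had unequal differences. RpLP1 and RpLP2 form the flexible arms of the stalk that RpLP0 carries. RpLP1 had 245 and 274 FPKM in the embryo libraries against 662 and 610.3 in the ovary libraries. RpLP2 had 473 and 466 FPKM in the embryo libraries, 945 and 937 FPKM in the ovary libraries, 1454 and 1381 FPKM in the OSS libraries and 660.1 and 749.6 FPKM in the carcass libraries. RpLP1 fell (log2 difference -1.29, SE 0.11, adjusted p = 3.53e-05), and RpLP2 was called lower as well (adjusted p = 1.75e-05). After median-ratio scaling RpLP1 stood at -0.04 and RpLP2 at 0.25, and neither was called. Relative to the geometric mean of the 83 members in the same library, RpLP0 stood at 0.0921 and 0.142 in the embryo libraries, 0.625 and 0.648 in the ovary libraries, 0.703 and 0.709 in the OSS libraries and 0.587 and 0.569 in the carcass libraries. RpS6 on the same measure stood at 5.22 and 6.02 in embryo, 1.20 and 1.24 in ovary, 1.45 and 1.44 in OSS and 1.37 and 1.35 in carcass. These ratios are taken within a library and do not depend on how libraries are scaled to each other.

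Of the genes named as copies, 3 are known as ribosome assembly factors rather than parts of the finished ribosome. RpLP0-like is the fly relative of yeast Mrt4, RpL24-like of yeast Rlp24 and RpL7-like of yeast Rlp7, each of which holds the place of, or resembles, a large subunit protein during assembly in the nucleolus. In embryo against ovary, in deposited values, RpLP0-like and RpL7-like rose and RpL24-like was not called, while RpLP0, RpL24 and RpL7 fell. RpLP0-like had 197 and 207 FPKM in the embryo libraries, 131 and 126 FPKM in the ovary libraries, 169 and 179.7 FPKM in the OSS libraries and 45.4 and 44.9 FPKM in the carcass libraries. Its embryo values were the highest and its carcass values the lowest, and it rose in embryo over ovary (log2 difference 0.65, SE 0.08, adjusted p = 0.000227, and 1.90 after median-ratio scaling). RpLP0-like made up 86.4% ± 2.72 of the summed FPKM of the pair in embryo, 24.4% ± 1.52 in ovary, 24.3% ± 0.975 in OSS and 15.1% ± 1.20 in carcass (SD, n = 2 each). Embryo was the only one of the 4 groups where it exceeded RpLP0.

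In the pair of RpL24-like and RpL24 the embryo share was also the highest. RpL24-like had 216 and 205 FPKM in the embryo libraries against 245 and 217 in the ovary libraries and was not called (log2 difference -0.13, SE 0.09, adjusted p = 0.246), but the scalings went opposite ways, with 1.12 after median-ratio scaling (called higher) and -0.37 after quantile normalization (called lower). RpL24, a large subunit protein at the face that meets the small subunit, had 149 and 120.4 FPKM in the embryo libraries against 548 and 537 in the ovary libraries (log2 difference -2.01, SE 0.11, adjusted p = 4.66e-06). The share of RpL24-like in the pair was 61.1% ± 2.69 in embryo, 29.8% ± 1.47 in ovary, 24.6% ± 0.645 in OSS and 22.5% ± 0.501 in carcass (SD, n = 2 each). RpL7-like had 169 and 163 FPKM in the embryo libraries against 118 and 132 in the ovary libraries (log2 difference 0.41, SE 0.11, adjusted p = 0.0121), and RpL7 had 213 and 181 FPKM against 753 and 799 FPKM (log2 difference -1.98, SE 0.10, adjusted p = 3.58e-06). Median-ratio scaling left RpL24 and RpL7 lower, at -0.76 and -0.73. The call for RpL7-like was lost without embryo replicate 1 or ovary replicate 1 (adjusted p of 0.0506 to 0.0867), and after quantile normalization (0.22, adjusted p = 0.102). RpL7-like made up 45.8% ± 2.15 of its pair in embryo, 13.8% ± 0.439 in ovary, 13.5% ± 0.573 in OSS and 10.0% ± 0.144 in carcass. In each of the 3 pairs both embryo shares lay above those of the other 6 libraries. This was not particular to assembly factors. RpL22-like made up 3.22% and 8.53% of its pair with RpL22 in the embryo libraries and at most 2.13% in any other library.

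**Figure D3:**
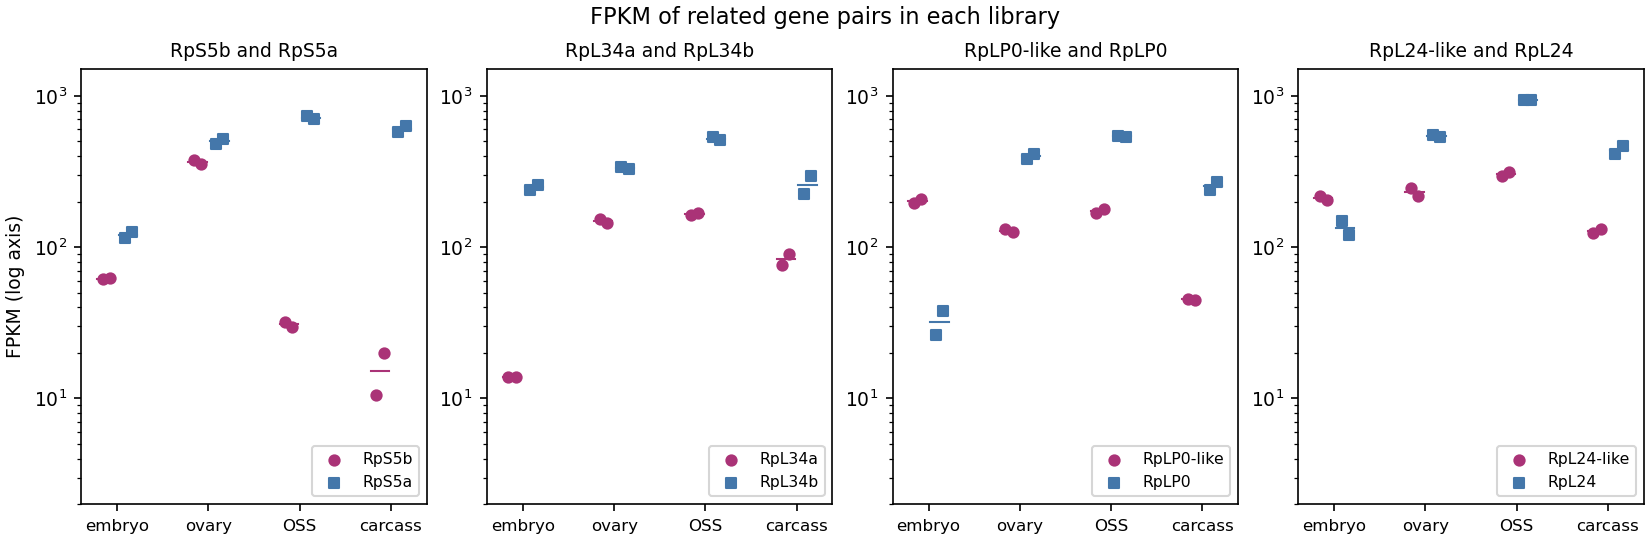
FPKM of 4 pairs of related genes in each of the 8 libraries on a log axis, with circles for RpS5b, RpL34a, RpLP0-like and RpL24-like, squares for their partners, and a short line at the mean of each group. RpS5b comes within reach of RpS5a in ovary and embryo and is far below it in OSS and carcass, RpL34a is far below RpL34b in embryo, and RpLP0-like and RpL24-like lie above RpLP0 and RpL24 in embryo and below them in the other groups.

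Of the 13 pairs of related genes, RpS5a and RpS5b differed most in their mix between ovary and carcass. Both encode versions of a small subunit protein at the mRNA exit, and RpS5b is known for expression in the female germline. RpS5b had 61.4 and 62.2 FPKM in the embryo libraries, 378 and 354 FPKM in the ovary libraries, 31.9 and 29.9 FPKM in the OSS libraries and 10.5 and 19.9 FPKM in the carcass libraries. The ovary values were far above those of every other group, with the embryo values next and OSS and carcass lowest. RpS5b was higher in ovary than in carcass, with a ratio of means of 24.1 (log2 difference 4.57, SE 0.25, adjusted p = 8.08e-06), and higher in ovary than in OSS, with a ratio of means of 11.9 (log2 difference 3.53, SE 0.25, adjusted p = 7.40e-05). Both calls held under the 3 other scalings and with any 1 library left out. Each of the 6 germline markers was also higher in both ovary libraries than in any OSS or carcass library, with none listed at 0, and their part in this difference was not tested. RpS5a had 115 and 126 FPKM in the embryo libraries, 482 and 521 FPKM in the ovary libraries, 732 and 705 FPKM in the OSS libraries and 573 and 637 FPKM in the carcass libraries. It was the only member called lower in ovary than in carcass (log2 difference -0.27, SE 0.08, adjusted p = 0.0205), a call lost without ovary replicate 1 (-0.21, adjusted p = 0.122) or carcass replicate 2 (-0.19, adjusted p = 0.0853) and turned by quantile normalization (0.19).

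RpS5b made up 34.0% ± 1.24 of the summed FPKM of the pair in embryo, 42.2% ± 2.43 in ovary, 4.12% ± 0.0744 in OSS and 2.41% ± 0.874 in carcass (SD, n = 2 each). Ovary and embryo thus shared a high proportion of RpS5b, with 34.9% and 33.1% in the embryo libraries against 43.9% and 40.5% in the ovary libraries, while both RpS5a (log2 difference -2.05, SE 0.08, adjusted p = 1.68e-06) and RpS5b (log2 difference -2.55, SE 0.25, adjusted p = 8.90e-05) fell in embryo. Over the geometric mean of the 83 members, the 2 genes together stood at 0.621 and 0.703 in the embryo libraries, 1.40 and 1.37 in the ovary libraries, 0.986 and 0.968 in the OSS libraries and 1.43 and 1.39 in the carcass libraries. After median-ratio scaling RpS5a stood at -0.80 and RpS5b at -1.30 for embryo minus ovary. Over the members' mean the sum differed little between ovary and carcass, whose mix of copies differed. RpS5a is X-linked and RpS5b lies on arm 3R, and RpS5a holds 14 annotated snoRNA genes on its own strand where RpS5b holds 0.

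RpL34a and RpL34b, versions of a large subunit protein, parted in the embryo. RpL34a had 13.9 and 13.9 FPKM in the embryo libraries, 154 and 145 FPKM in the ovary libraries, 162 and 169 FPKM in the OSS libraries and 76.2 and 90.5 FPKM in the carcass libraries. RpL34b had 240.4 and 258 FPKM in the embryo libraries, 340.3 and 327 FPKM in the ovary libraries, 534 and 509 FPKM in the OSS libraries and 223 and 294 FPKM in the carcass libraries. RpL34a was lower in embryo than in any other group and fell against ovary (log2 difference -3.34, SE 0.11, adjusted p = 8.16e-07). RpL34b was called lower by a smaller amount (log2 difference -0.42, SE 0.13, adjusted p = 0.023), and its direction turned under median-ratio scaling (0.83). The call for RpL34b was lost without embryo replicate 1, ovary replicate 1, ovary replicate 2, OSS replicate 1 or OSS replicate 2 (adjusted p of 0.0556 to 0.112). With no filter on low values the RpL34b call was lost as well (adjusted p = 0.0549). The share of RpL34a in the pair was 5.29% ± 0.242 in embryo, 30.9% ± 0.362 in ovary, 24.1% ± 1.21 in OSS and 24.5% ± 1.38 in carcass (SD, n = 2 each).

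RpL22 and RpL22-like encode versions of a large subunit protein, and RpL22-like is known for expression in the germline of the testis. RpL22-like had 6.37 and 17.4 FPKM in the embryo libraries, 1.01 and 1.19 FPKM in the ovary libraries, 5.07 and 5.23 FPKM in the OSS libraries and 1.04 and 0.746 FPKM in the carcass libraries. Embryo was highest with a wide spread, OSS was next, and ovary and carcass overlapped near 1 FPKM. It was higher in embryo than in ovary (log2 difference 2.47, SE 0.43, adjusted p = 0.00181), lower in ovary than in OSS (log2 difference -1.55, SE 0.43, adjusted p = 0.0257) and higher in OSS than in carcass (log2 difference 1.70, SE 0.43, adjusted p = 0.00896). The ovary against OSS call was lost after quantile normalization (-0.68, adjusted p = 0.132) and with no filter on low values (adjusted p = 0.0561). The difference between ovary and OSS was no longer called without ovary replicate 1, ovary replicate 2, OSS replicate 1 or OSS replicate 2 (adjusted p of 0.101 to 0.128). The difference between OSS and carcass was no longer called without OSS replicate 1, OSS replicate 2 or carcass replicate 2 (adjusted p of 0.0516 to 0.0548), nor after median-ratio scaling (adjusted p = 0.0605). RpL22 itself had 192 and 187 FPKM in the embryo libraries, 329 and 366 FPKM in the ovary libraries, 248 and 239.7 FPKM in the OSS libraries and 257 and 325 FPKM in the carcass libraries. It was 1 of 2 members called higher in ovary than in OSS (log2 difference 0.51, SE 0.12, adjusted p = 0.0122), a call lost without ovary replicate 2, OSS replicate 1 or OSS replicate 2 (adjusted p of 0.0703 to 0.0921).

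RpS10a and RpS19b, lesser copies of small subunit proteins that are known for expression in the germline, were highest in OSS. RpS10a had 0 and 9.48 FPKM in the embryo libraries, 0.606 and 0 in the ovary libraries and 29.6 and 23.0 in the OSS libraries, and both carcass libraries listed it at 0. It was lower in ovary than in OSS (log2 difference -4.42, SE 0.97, adjusted p = 0.0101). It was also called higher in OSS than in carcass (adjusted p = 0.00329), with no fold given because carcass is at 0. Outside OSS, RpS10a reached 1 FPKM only in embryo replicate 2, so it passed the filter on low values only through OSS. Its calls against OSS are therefore not independent of the filter and give no separate support for a high OSS level. RpS19b had 5.76 and 0 FPKM in the embryo libraries, 1.28 and 0 in the ovary libraries, 36.0 and 35.3 in the OSS libraries and 1.57 in carcass replicate 2. It was lower in ovary than in OSS (log2 difference -4.60, SE 0.91, adjusted p = 0.00942) and higher in OSS than in carcass (log2 difference 3.83, SE 1.12, adjusted p = 0.0209), where the fit used the single carcass value. The ovary and OSS libraries did not overlap for either gene, and 1 of the 2 embryo libraries was at 0 for each. With a pseudocount of 0.1 both ovary against OSS calls were lost (adjusted p = 0.0557 for RpS10a and 0.0786 for RpS19b). The OSS against carcass call of RpS19b was also lost there (log2 difference 4.42) and with no filter (3.83). Both ovary against OSS calls were lost without ovary replicate 2, OSS replicate 1 or OSS replicate 2 (adjusted p of 0.0692 to 0.0857 for RpS10a and adjusted p of 0.0747 to 0.0864 for RpS19b), and also after quantile normalization (adjusted p = 0.0871 and 0.126). The OSS against carcass call of RpS19b was lost without OSS replicate 1 or OSS replicate 2 (adjusted p of 0.0968 to 0.0984) and after median-ratio scaling (adjusted p = 0.0874). In OSS the 6 germline markers summed to 13.0 and 13.8 FPKM and the 3 testis markers (dj, Mst98Ca and betaTub85D) to 1.03 and 0.625 FPKM. Of these 3, dj was at 0 in both OSS libraries, Mst98Ca at 0.234 and 0 FPKM, and betaTub85D at 0.798 and 0.625 FPKM. The part of such cells in the RpS10a and RpS19b levels was not tested. The main copies were high everywhere. RpS10b had 257 and 255 FPKM in the embryo libraries, 325 and 349 FPKM in the ovary libraries, 361 and 344 FPKM in the OSS libraries and 192 and 223 FPKM in the carcass libraries. RpS19a had 163 and 143 FPKM in the embryo libraries, 508 and 554 FPKM in the ovary libraries, 433 and 442 FPKM in the OSS libraries and 321 and 396 FPKM in the carcass libraries. The lesser copy made up 6.92% ± 0.929 of the RpS10 pair and 7.54% ± 0.211 of the RpS19 pair in OSS (SD, n = 2 each).

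**Figure D4:**
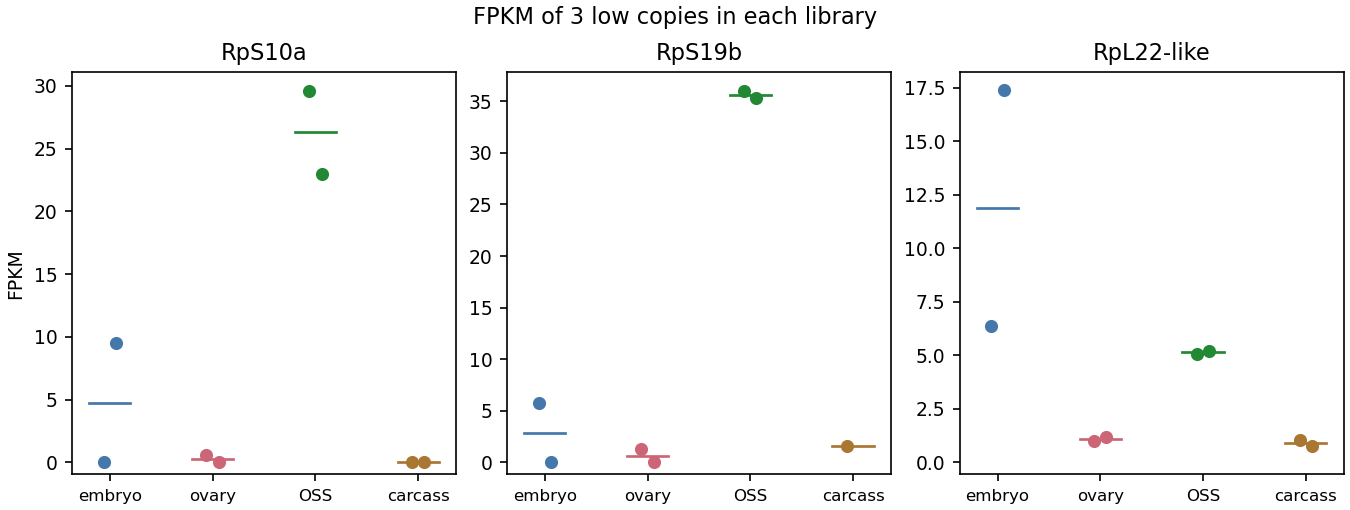
FPKM of RpS10a, RpS19b and RpL22-like in each library on a linear axis, with a line at the mean of each group and no value for RpS19b in carcass replicate 1. RpS10a and RpS19b are high in both OSS libraries and near 0 in ovary and carcass, and the embryo libraries of all 3 genes lie apart from each other.

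The remaining pairs detected were those of RpS14 and RpS15A, both of the small subunit. RpS14a and RpS14b are neighbouring X-linked genes for the same protein, and the sources used here do not say how reads shared by both copies were counted, so their values are uncertain. RpS14a had 396 and 381 FPKM in the embryo libraries, 450.4 and 404 FPKM in the ovary libraries, 692 and 638 FPKM in the OSS libraries and 268 and 379.7 FPKM in the carcass libraries. RpS14b had 188 and 152 FPKM in the embryo libraries, 151 and 163 FPKM in the ovary libraries, 193 and 186 FPKM in the OSS libraries and 123 and 153 FPKM in the carcass libraries. The groups lay closer together than for RpS5b or RpL34a, and RpS14b made up 30.3% ± 2.64 of the pair in embryo, 27.0% ± 2.56 in ovary, 22.2% ± 0.501 in OSS and 30.1% ± 1.97 in carcass (SD, n = 2 each). RpS15Aa had 347 and 310.2 FPKM in the embryo libraries, 466 and 493 FPKM in the ovary libraries, 642 and 637 FPKM in the OSS libraries and 369 and 392 FPKM in the carcass libraries. RpS15Ab had 26.6 and 26.0 FPKM in the embryo libraries, 46.9 and 49.8 FPKM in the ovary libraries, 83.0 and 65.1 FPKM in the OSS libraries and 34.8 and 49.0 FPKM in the carcass libraries. This lesser copy made up 7.42% ± 0.438, 9.16% ± 0.0269, 10.4% ± 1.54 and 9.87% ± 1.75 in the same groups. Neither RpS14a nor RpS14b was called between embryo and ovary.

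The comparison of ovary with carcass sets an organ full of growing germ cells against the rest of the female body. In deposited FPKM nearly every ribosomal protein gene was somewhat higher in ovary, with 75 of 86 members called higher, 1 lower and 10 not called, against 43.5% and 31.1% of all genes, yet with median-ratio scaling the count turned to 54 members lower and 2 higher, against 39.9% and 27.6% of all genes. The median difference was 0.43 over the members and 0.31 over all genes in deposited values, and -0.40 and -0.28 after median-ratio scaling. With quantile normalization 82 members were higher and 0 lower, with 0 lower by limma at an unadjusted p under 0.05, against 39.6% and 25.9% of all genes. The quartiles of the members were 0.34 and 0.54, and those of all genes were -1.53 and 1.48. After RpS5b, the largest differences belonged to the 3 assembly factors and sop. RpLP0-like had 131 and 126 FPKM in the ovary libraries against 45.4 and 44.9 in the carcass libraries (log2 difference 1.49, SE 0.08, adjusted p = 6.60e-06), and stayed higher after median-ratio scaling (0.66). RpL7-like had 118 and 132 FPKM in the ovary libraries against 57.6 and 67.5 in the carcass libraries (log2 difference 0.99, SE 0.11, adjusted p = 0.000129). The gene sop had 433 and 469 FPKM against 218 and 269 FPKM (log2 difference 0.89, SE 0.12, adjusted p = 0.000329), and RpL24-like had 245 and 217 FPKM against 123 and 132 FPKM (log2 difference 0.85, SE 0.09, adjusted p = 9.55e-05). These 4 were given here as the largest differences, so the lack of overlap between their ovary and carcass libraries follows from that choice. RpL7-like, sop and RpL24-like were no longer called after median-ratio scaling, at 0.16, 0.06 and 0.02.

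Against OSS, the ovary libraries had slightly less of most ribosomal protein mRNAs. Of 86 members 54 were called lower and 2 higher in ovary, with 30 not called, against 23% of all genes called lower and 18.8% higher, while median-ratio scaling gave 33 lower and 2 higher against 19.1% and 19.6% of all genes. Quantile normalization gave 24 lower and 7 higher against 19.7% and 19.6% of all genes. The median was -0.40 over the members and -0.16 over all genes. The lower count also rested on single libraries, at 32 without ovary replicate 1, 34 without ovary replicate 2, 27 without OSS replicate 1 and 29 without OSS replicate 2. Besides the rare copies, the largest falls in ovary were those of RpL24, with 548 and 537 FPKM in the ovary libraries against 936 and 941 in the OSS libraries (log2 difference -0.79, SE 0.11, adjusted p = 0.00118), and of the stalk protein RpLP1, with 662 and 610.3 FPKM against 1089.6 and 1036 FPKM (log2 difference -0.74, SE 0.11, adjusted p = 0.00159). Both were given as the largest falls, so the lack of overlap between the 2 groups follows from that choice. RpL24 and RpLP1 stayed lower in ovary under each scaling tried. The higher members were RpS5b and RpL22, and without ovary replicate 2, OSS replicate 1 or OSS replicate 2 the higher count was 1.

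OSS cells had more of almost all ribosomal protein mRNAs than carcass in deposited FPKM, with 83 of 86 members called higher, against 46.1% of all genes, but with median-ratio scaling 5 were higher and 14 lower, against 28.4% and 40.3% of all genes. Quantile normalization kept the deposited direction, with 82 higher and 0 lower, against 41.9% and 27.6% of all genes. None was called lower by limma in deposited values, and 0 had an unadjusted p under 0.05 in that direction, against 29.9% of all genes called lower. Without carcass replicate 1 the count of lower members was 1, RpL22. The median was 0.82 over the members and 0.51 over all genes in deposited values, and -0.08 and -0.23 after median-ratio scaling. Beside the rare copies the assembly factors again led. RpLP0-like had 169 and 179.7 FPKM in the OSS libraries against 45.4 and 44.9 in the carcass libraries (log2 difference 1.92, SE 0.08, adjusted p = 3.31e-06), and RpL7-like had 158 and 169 FPKM against 57.6 and 67.5 FPKM (log2 difference 1.38, SE 0.11, adjusted p = 2.81e-05). Both stayed higher in OSS after median-ratio scaling, at 1.02 and 0.47. RpL22 was not called, with 248 and 239.7 FPKM in the OSS libraries against 257 and 325 in the carcass libraries (log2 difference -0.25, SE 0.12, adjusted p = 0.0927), and after median-ratio scaling it was lower in OSS (-1.15). Ovary and OSS are set against the same carcass libraries, so the likeness of these comparisons is not independent.

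When the libraries were scaled to an equal geometric mean of the members, a step chosen after the data were seen, the comparisons show which members differed relative to the rest of the family. This step centres the members by construction, so members on both sides are built in and the balance of higher and lower is not a result. The shares of all genes are not centred in this way. For embryo minus ovary 42 members were then called higher and 33 lower, against 28% and 33.2% of all genes. For ovary minus OSS the counts were 15 and 23, against 24.6% and 14.6% of all genes, and for ovary minus carcass they were 9 and 21, against 33.7% and 35.5%. For OSS minus carcass they were 16 and 15, against 30% and 38.8%. Embryo minus ovary thus had the most members called in either direction on this scale, with 11 of 86 not called, against 48, 56 and 55 not called for ovary minus OSS, ovary minus carcass and OSS minus carcass.

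The annotation adds features that the naming rule did not use. All 90 members matched a gene of the current annotation, 87 by symbol and 3 by an older name. Of the 83 members at 10 FPKM or more everywhere, 28 (33.7%) hold at least 1 annotated snoRNA gene on the same strand, against 82 of 11214 tested protein-coding genes (0.731%). snoRNAs guide chemical modification of ribosomal RNA and are often cut from introns of host genes. The sources used here do not say whether snoRNA reads entered the FPKM of their hosts. Members with and without a snoRNA gene had like medians for embryo minus ovary, -0.98 over 28 genes and -0.99 over 55 genes. The median coding length was 468 bases over the 83 members and 1299 over the 11214 genes. Coding length had a Spearman correlation of -0.09 with the embryo minus ovary difference over the 83 genes, and the number of exons -0.08, as a description of genes measured in the same libraries. The 14 X-linked members had a median embryo minus ovary difference of -0.39 and the 69 others of -1.22, where all tested genes on X had -0.69 and those on chromosomes 2, 3 and 4 had -0.55. Of the members named above, RpS6 is X-linked and rose in embryo, and RpS5a is X-linked and fell.

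Other genes of protein synthesis were counted from lists. All 3 ribosomal or ribosome-bound genes outside the naming rule fell in embryo against ovary in deposited values. The gene sta, which encodes the small subunit protein SA, averaged 98.8 ± 0.829 FPKM in embryo and 633 ± 24.6 FPKM in ovary (SD, n = 2 each; log2 difference -2.67, SE 0.10, adjusted p = 1.38e-06). Rack1, the signalling scaffold on the small subunit, averaged 146 ± 18.4 FPKM in embryo and 664 ± 26.8 FPKM in ovary (log2 difference -2.18, SE 0.10, adjusted p = 2.75e-06). The gene oho23B, which encodes RpS21, averaged 208 ± 18.2 FPKM in embryo and 416 ± 15.6 FPKM in ovary (SE 0.11, adjusted p = 0.000134). After median-ratio scaling its difference stood at 0.25 and was not called (adjusted p = 0.117). Genes of the lists below were named after their values were seen, as the extremes of each list or as known regulators.

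Genes for ribosome assembly and ribosomal RNA transcription were higher in ovary and OSS than in carcass. All 26 tested of 32 listed were called higher in ovary than in carcass, with a median of 2.53, against 43.5% of all genes, and 24 were higher after median-ratio scaling, against 27.6%. Surf6, a nucleolar assembly protein, averaged 221 ± 12.3 FPKM in ovary and 22.9 ± 6.33 FPKM in carcass (log2 difference 3.24, SE 0.17, adjusted p = 6.49e-06). The smallest difference was that of Nmd3, the export adaptor of the large subunit, with 82.7 ± 1.57 FPKM in ovary and 38.4 ± 11.1 FPKM in carcass (log2 difference 1.12, SE 0.21, adjusted p = 0.00235), a call lost with median-ratio scaling (0.30). In OSS against carcass all 26 were called higher (median 2.86; 25 after median-ratio scaling; 46.1% and 28.4% of all genes), and in ovary against OSS 2 were higher and 5 lower, against 18.8% and 23% of all genes. In embryo against ovary the list split, with 11 higher and 10 lower, and 15 higher and 9 lower with median-ratio scaling, where all genes had 15.1% and 44.8%, and 28.7% and 32.2%. Nnp-1 averaged 316 ± 5.93 FPKM in embryo and 86.8 ± 0.945 FPKM in ovary (log2 difference 1.85, SE 0.18, adjusted p = 7.30e-05), while Nmd3 averaged 2.09 ± 0.539 FPKM and 82.7 ± 1.57 FPKM (log2 difference -4.77, SE 0.21, adjusted p = 2.43e-06).

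Translation factors depended on the scaling against carcass, with 28 of 31 higher and 1 lower in ovary than in carcass in deposited values, while median-ratio scaling gave 8 and 7. All genes had 43.5% higher and 31.1% lower in deposited values, and 27.6% and 39.9% after median-ratio scaling. Quantile normalization left the counts at 28 and 1, against 39.6% and 25.9% of all genes. The gene lower in deposited values was Ef1alpha100E, an elongation factor known from adult tissues, at 2.22 ± 1.05 FPKM in ovary and 197 ± 12.8 FPKM in carcass (log2 difference -5.98, SE 0.32, adjusted p = 7.03e-06). The anti-association factor eIF6, which also acts in large subunit assembly, had the largest rise there (log2 difference 1.97, SE 0.22, adjusted p = 0.000172) and averaged 67.1 ± 5.67 FPKM in ovary, 172 ± 8.04 FPKM in OSS and 16.8 ± 5.96 FPKM in carcass. In embryo against ovary 21 were lower and 3 higher, a split that median-ratio scaling turned to 12 lower and 16 higher, against 44.8% and 15.1%, and 32.2% and 28.7%, of all genes. Quantile normalization did not turn it, with 21 lower and 6 higher, against 27.5% and 29.2% of all genes. The differences ran from Adam, an eIF3 subunit at 1.91 ± 1.74 FPKM in embryo and 199.6 ± 14.9 FPKM in ovary (log2 difference -6.25, SE 0.37, adjusted p = 7.07e-06), to the RNA helicase eIF4AIII at 146 ± 9.36 FPKM and 94.0 ± 1.78 FPKM (log2 difference 0.63, SE 0.08, adjusted p = 0.000457). In ovary against OSS 4 were higher, led by the scaffold eIF4G (log2 difference 1.35, SE 0.10, adjusted p = 9.05e-05), and 10 lower, against 18.8% and 23% of all genes, but with quantile normalization 10 were higher and 9 lower, against 19.6% and 19.7%. In OSS against carcass 25 were higher and 3 lower, or 13 and 10 with median-ratio scaling, against 46.1% and 29.9%, or 28.4% and 40.3%, of all genes. Quantile normalization again gave 25 and 3 there, against 41.9% and 27.6% of all genes.

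Growth regulators were called in both directions in each comparison but ovary against OSS. In ovary against carcass 10 of 13 were higher and 1 lower, or 4 and 3 with median-ratio scaling, against 43.5% and 31.1%, or 27.6% and 39.9%, of all genes. The lower gene in deposited values was Thor, the translation repressor 4E-BP, with 39.7 ± 27.4 FPKM in ovary and 161 ± 14.7 FPKM in carcass (log2 difference -2.17, SE 0.44, adjusted p = 0.00305). In ovary against OSS 7 were higher in deposited values and with median-ratio scaling and 6 with quantile normalization, against 18.8%, 19.6% and 19.6% of all genes. In each of these 0 were lower, against 23%, 19.1% and 19.7% of all genes. The higher genes were led by dm, the fly Myc gene, with 129 ± 9.52 FPKM in ovary and 25.0 ± 0.128 FPKM in OSS (log2 difference 2.33, SE 0.11, adjusted p = 1.67e-05). Both other comparisons turned with the scaling, from 4 higher and 5 lower in embryo against ovary to 8 and 3, and from 6 higher and 4 lower in OSS against carcass to 2 and 6, both with median-ratio scaling. Of all genes, 15.1% and 44.8% were higher and lower in embryo against ovary in deposited values and 28.7% and 32.2% with that scaling, and 46.1% and 29.9%, then 28.4% and 40.3%, in OSS against carcass. S6k, the kinase of RpS6, fell, with 6.57 ± 1.65 FPKM in embryo and 70.1 ± 5.35 FPKM in ovary (log2 difference -3.25, SE 0.18, adjusted p = 6.08e-06), while RpS6 rose, and Tsc1, an inhibitor of the TOR pathway, rose, with 144 ± 0.104 FPKM in embryo and 40.7 ± 4.23 FPKM in ovary (log2 difference 1.80, SE 0.17, adjusted p = 6.82e-05). The 72 mitochondrial ribosomal protein genes had 69 lower and 2 higher in embryo against ovary, with a median of -3.47, against 44.8% and 15.1% of all genes, and 56 were lower after median-ratio scaling, against 32.2%.

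**Figure D5:**
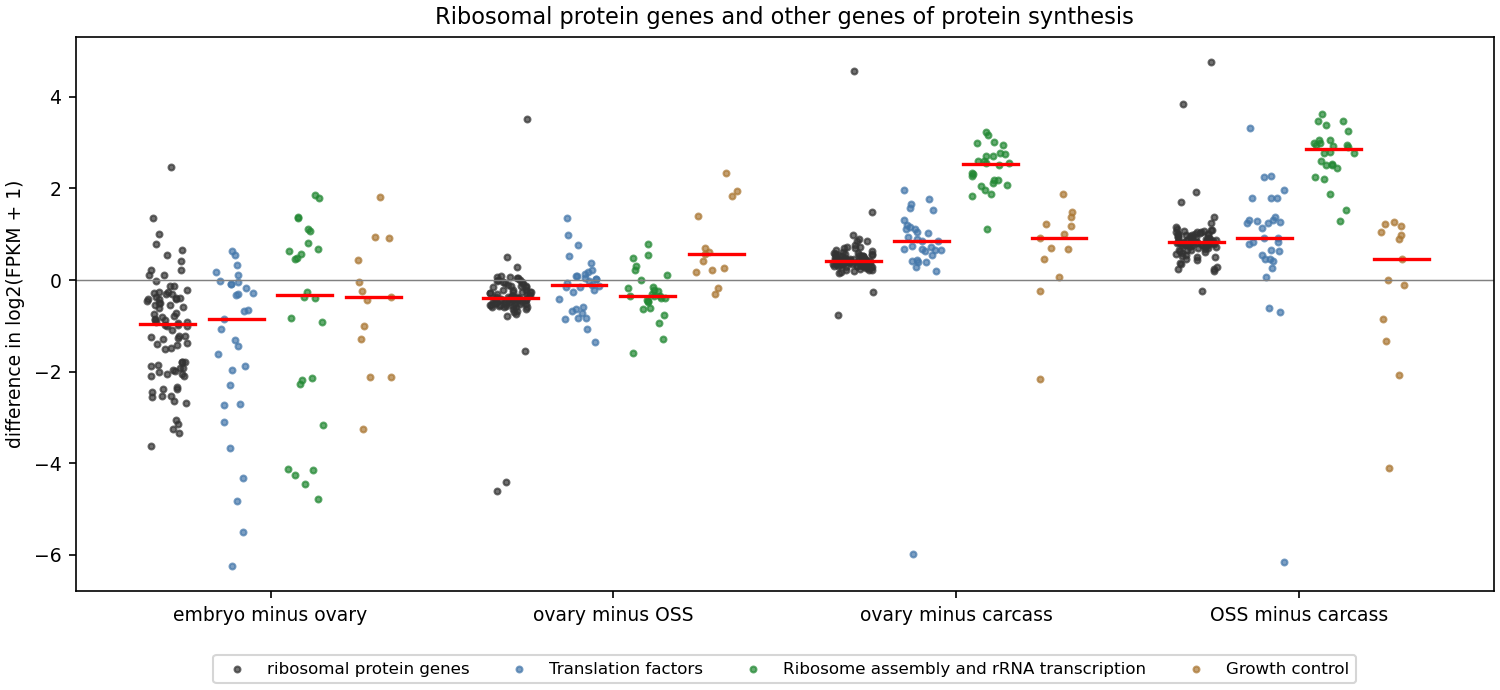
Difference in log2(FPKM + 1) for the 86 ribosomal protein genes tested and 3 lists of other genes of protein synthesis in the 4 comparisons, each dot a gene, with red lines at the medians. The ribosome assembly list has medians of 2.53 for ovary minus carcass and 2.86 for OSS minus carcass, above those of the ribosomal protein genes at 0.43 and 0.82, and all 4 sets are spread widely for embryo minus ovary.

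For members with an unusual pattern, the 5 genes of the whole table with the most similar profile were listed by Pearson correlation of log2(FPKM + 1) over the 8 libraries, as a description in which all points share these libraries. For RpS5b they were CG4198, CG18231, wun2, CG11357 and CG30007, with r of 0.986 to 0.992. The 2 nearest were low, with CG4198 at 5.10 and 4.10 FPKM in ovary and CG18231 at 2.35 and 1.95. At rank 3 was wun2, a lipid phosphatase that guides germ cells. It had 11.1 and 12.7 FPKM in embryo, 48.9 and 47.0 in ovary, 10.2 and 9.09 in OSS and 3.82 and 8.07 in carcass. For RpLP0-like the genes were scra, CG4164, 14-3-3epsilon, dsh and Git, with r of 0.997 to 0.998. For RpS6 they were CG42248, Cirl, qkr58E-3, Tak1 and PrBP, with r of 0.987 to 0.993, and for RpL15 they were B4, skpA, CG7139, Miro and ifc, with r of 0.995 to 0.998. None of these genes has a ribosomal protein name.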

How the data were processed

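RNA sequencing values of 8 libraries were used, 2 each of embryo, ovary, OSS and carcass, grouped by their labels. The deposited values are FPKM per gene symbol, made by the authors. Cufflinks, TopHat, Bowtie and CASAVA 1.3 are the tools, and dm3 the build, per the submitters' processing notes, and the sources used here give no further settings. Carcass replicate 1 holds 1070 lines without a number (1068 blank, 2 with text) and carcass replicate 2 holds 5, and these were treated as missing. Symbols that occur more than once (93 names, 255 lines) were dropped, leaving 13892 genes. Of these, 11488 reached 1 FPKM in 2 libraries or more and were tested on log2(FPKM + 1) with limma 3.58.1 in R 4.3.3 (lmFit, eBayes with trend), in 1 fit over the 8 libraries with 4 residual degrees of freedom. Tests were 2-sided, with Benjamini-Hochberg adjustment over all genes tested and calls at an adjusted p under 0.05. The script was first tested on simulated data. The pseudocount of 1 makes log2 differences of low genes smaller than their folds. Read totals are unknown, so no counting error is given.

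The members and the gene lists were chosen with earlier results of these data known. The text names the 5 called members with the largest positive and the 5 with the largest negative difference in each comparison, both genes of every pair of copies, the stalk genes RpLP0, RpLP1 and RpLP2, RpS6, sop, the 3 highest and 3 lowest members by the mean of the group means, and the 5 genes nearest in pattern to a pair member. RpL5, the nearest genes of RpS6 and RpL15, and the list genes named were chosen after their values were seen. Alternatives were a pseudocount of 0.1, no filter, quantile normalization, median-ratio scaling, a replicate block, a fit on the 2 groups only and each library left out. Coding length, exons, chromosome arm and snoRNA genes came from the Ensembl release 115 annotation, which is of another build than dm3, so no coordinates are given. The 22 files of transposon values were not used, and protein and promoter sequences were not analysed here.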

Additional observations from a re-analysis of the deposited data

How the results depend on the processing

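Scaling had the widest effect. With median-ratio scaling, counts of members called higher and lower were 38 and 29 for embryo minus ovary, 2 and 33 for ovary minus OSS, 2 and 54 for ovary minus carcass, and 5 and 14 for OSS minus carcass. With the members' geometric mean set equal, an alternative chosen after seeing the data, they were 42 and 33, 15 and 23, 9 and 21, and 16 and 15 in the same order. That step centres the members by construction. Quantile normalization gave 7 higher and 24 lower for ovary minus OSS and 0 lower for ovary minus carcass, and limma on the 2 groups only also gave 0 lower for ovary minus carcass. Among the 60 differences of single genes recomputed under the alternatives, those that turned under median-ratio scaling and the members' mean were those of embryo minus ovary for RpL34b (0.83 and 0.76), RpL24-like (1.12 and 1.05), RpL41 (1.23 and 1.16), RpLP2 (0.25 and 0.18) and oho23B (0.25 and 0.18), and RpS5a turned for ovary minus carcass under quantile normalization (0.19). With median-ratio scaling RpLP2 and oho23B were not called (adjusted p = 0.0620 and 0.117). With the members' mean both were called higher (adjusted p = 0.0166 and 0.0274). The cause of these turns was not tested.

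With 1 library left out, members called lower numbered 27 to 58 for ovary minus OSS, 0 to 1 for ovary minus carcass, 0 to 1 for OSS minus carcass and 62 to 72 for embryo minus ovary, and members called higher numbered 1 to 3, 50 to 78, 75 to 84 and 4 to 7 in the same order. RpS19b had no OSS minus carcass value without carcass replicate 2. Counting only members at 10 FPKM or more in every library, also chosen after seeing the data, kept every count within 1.5 times. A pseudocount of 0.1 put the log2 ratio of RpS5b over RpS5a in OSS at -4.54, of RpL34a over RpL34b in embryo at -4.15 and of RpS15Ab over RpS15Aa in ovary at -3.31, beyond 1 SD from the values with a pseudocount of 1. Of 60 gene differences, 3 lost their call with a pseudocount of 0.1 and 4 with no filter. Those 3 were ovary minus OSS for RpS10a and RpS19b and OSS minus carcass for RpS19b.

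The replicate numbers were used as a block only as an alternative, since deviations of equal numbers in different groups had correlations of -0.07 to 0.02. With the replicate block the counts of members called higher and lower were 6 and 69 for embryo minus ovary, 2 and 54 for ovary minus OSS, 73 and 1 for ovary minus carcass and 83 and 0 for OSS minus carcass, and 60 of 60 gene differences kept their call.

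The depth of single genes is unknown, and 2 libraries per group limit the precision of each difference.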
